A study of Rattus norvegicus with 9 samples.

Results

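The bone morphogenetic proteins (BMPs), growth and differentiation factors (GDFs) and activins form a large family of secreted dimeric ligands, and the transcripts of this pathway were followed across 3 ages of cultured cardiac fibroblasts of the rat, cells that lay down and remodel the matrix of the heart. The genes were matched by symbol, from ligands to target genes, and 54 of the 17337 genes in the count table matched. The list of symbols was drawn up with earlier results of these data known. By role they were 23 ligand genes, 1 protease named for the family (Bmp1), 10 receptor genes (Bambi, a receptor without a kinase, included), 8 secreted antagonists, 8 Smad genes and 4 Id genes. All 9 cultures came from Sprague Dawley rats: 3 were fetal, from embryonic day 18, 3 were neonatal, from the first postnatal day (day 1), and 3 were adult, from animals of 7 weeks. Every group was grown the same way, at passage 0 until the flask was confluent, in DMEM with 10% fetal bovine serum, antibiotics and 0.1 mM ascorbic acid. The labels name no genotype, sex, sorting step or number of animals per culture, nor do they say that libraries of an age came from separate animals, so p-values measure the spread between these libraries, which may be technical.

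In this pathway a ligand dimer brings together type I and type II receptor kinases, and the type II kinase switches on the type I kinase. BMP and GDF signals then pass mainly through Smad1, Smad5 and Smad9, activin signals through Smad2 and Smad3, and both use the shared partner Smad4. Secreted antagonists such as gremlin, noggin and follistatin bind ligands outside the cell, while the inhibitory Smads and Bambi act as feedback inside it. Id genes, which encode helix-loop-helix proteins that hold back DNA-binding partners, are the best-known immediate BMP targets. In heart, activins and BMPs are studied for their roles in valve and septum formation and in fibrosis.

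Depth was 13392825 to 22850491 assigned counts per library, and 3 counts, taken as the floor of detection, corresponded to 0.132 to 0.230 CPM (counts per 1000000 assigned counts, with TMM-scaled library sizes). Of the 54 genes, 41 passed the filter on low counts and were tested, 13 did not, and 2 of those 13 (Gdf1 and Inhbc) had no count in any library. Fetal replicate 3 stood apart from the other fetal libraries: its mean distance to them over log2 CPM was 77.3, against 51.1 and 50.9 for fetal replicates 1 and 2. Its 7 lung epithelial markers summed to 242 CPM, against 3.62 and 4.41 CPM in the other fetal libraries. Adult replicate 1 was highest of its age for several members named below. Where leaving out either library ended or made a call of a member described below, or moved a called value by over 1.5 times, the value without it is given.

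The label of cardiac fibroblast was checked against marker genes. The 8 fibroblast markers summed to 23589 to 50211 CPM in fetal, 67736 to 74002 CPM in neonatal and 21745 to 29556 CPM in adult libraries, with Col1a2 listed under 1 CPM throughout. These sums were mostly Col1a1 and Col3a1, with adult means of 14965 and 9468 CPM. Against all younger libraries, 2 of the markers, Pdgfra and Tcf21, were higher in every adult library and 1, Ddr2, was lower. Pdgfra averaged 122, 182 and 433 CPM and Ddr2 218, 336 and 153 CPM in fetal, neonatal and adult cultures. Each of the 13 macrophage markers lay above all younger libraries in all adult ones, with sums of 15.04 to 73.3, 170.1 to 188 and 4299 to 5988 CPM in fetal, neonatal and adult cultures. All 11 cardiomyocyte markers in the table were lower in every adult library, with sums of 7071 to 10717, 5067 to 5617 and 304 to 319 CPM. In adult libraries Tnnt2 alone was at 303 to 316 CPM. Every other cardiomyocyte marker was under 1 CPM there, and 5 were at or below 3 counts in each adult library. Endothelial markers summed to 17.2 to 20.7, 23.6 to 28.9 and 92.3 to 108 CPM. Mural markers summed to 467 to 786, 872 to 952 and 111 to 156 CPM, and cartilage markers to 171 to 221, 274 to 293 and 67.7 to 128 CPM. Epicardial or mesothelial markers summed to 58.3 to 62.0, 29.5 to 32.0 and 14.0 to 33.0 CPM. In these bulk cultures fewer cells of a type and less RNA per cell cannot be told apart, and the part of other cell types in the age differences below was not tested.

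Between fetal and neonatal cultures, 11 of the 41 tested genes rose and 11 fell (edgeR adjusted p under 0.05), a share of 53.7% where 36.3% of all 11337 tested genes were called (18.3% higher and 18% lower). From neonatal to adult 10 rose and 14 fell (58.5%, below the background of 63.5%, of which 31.6% higher and 31.8% lower). From fetal to adult 14 rose and 22 fell (87.8%, background 70.5%, of which 34.9% higher and 35.5% lower). A called log2 fold change of at least 1 in size was found for 10, 11 and 25 members in these comparisons, where 11.2%, 25% and 32.4% of all tested genes had one. At least 1 comparison was called for 36 members (background 81.6%), and none for Nog, Bmp3, Fst, Gdf6 and Acvr1b. Sizes of change were larger than the typical gene's: the median size of the log2 fold change was 0.57, 0.91 and 1.27 in the same order, against 0.29, 0.52 and 0.63 over all tested genes. Signed medians were -0.0029, -0.32 and -0.29, against -0.0053, -0.0065 and -0.013 over all tested genes. With Bmp5 and Bmp7, which had no adult counts, set at their bounds, the adult against neonatal median was -0.19. Fetal to adult, all 4 Id genes rose, 3 of 13 ligands rose and 8 fell, 1 of 9 receptors rose and 7 fell, 1 of 7 antagonists rose and 4 fell, and 4 of 7 Smads rose and 3 fell.

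Inhbb, Id4, Bmp6, Id3, Id2 and Acvrl1 were called higher in each pair of ages (6 genes), and Bmpr1a, Smad5, Inhba, Bmp7, Bmpr2 and Inha were called lower in each (6 genes). Over all tested genes the shares were 8.19% and 7.99%. The second count was 2 without neonatal replicate 3, and 3 without neonatal replicate 2 or fetal replicate 2. The forest plot draws each estimate with its SE.

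**Figure D1:**
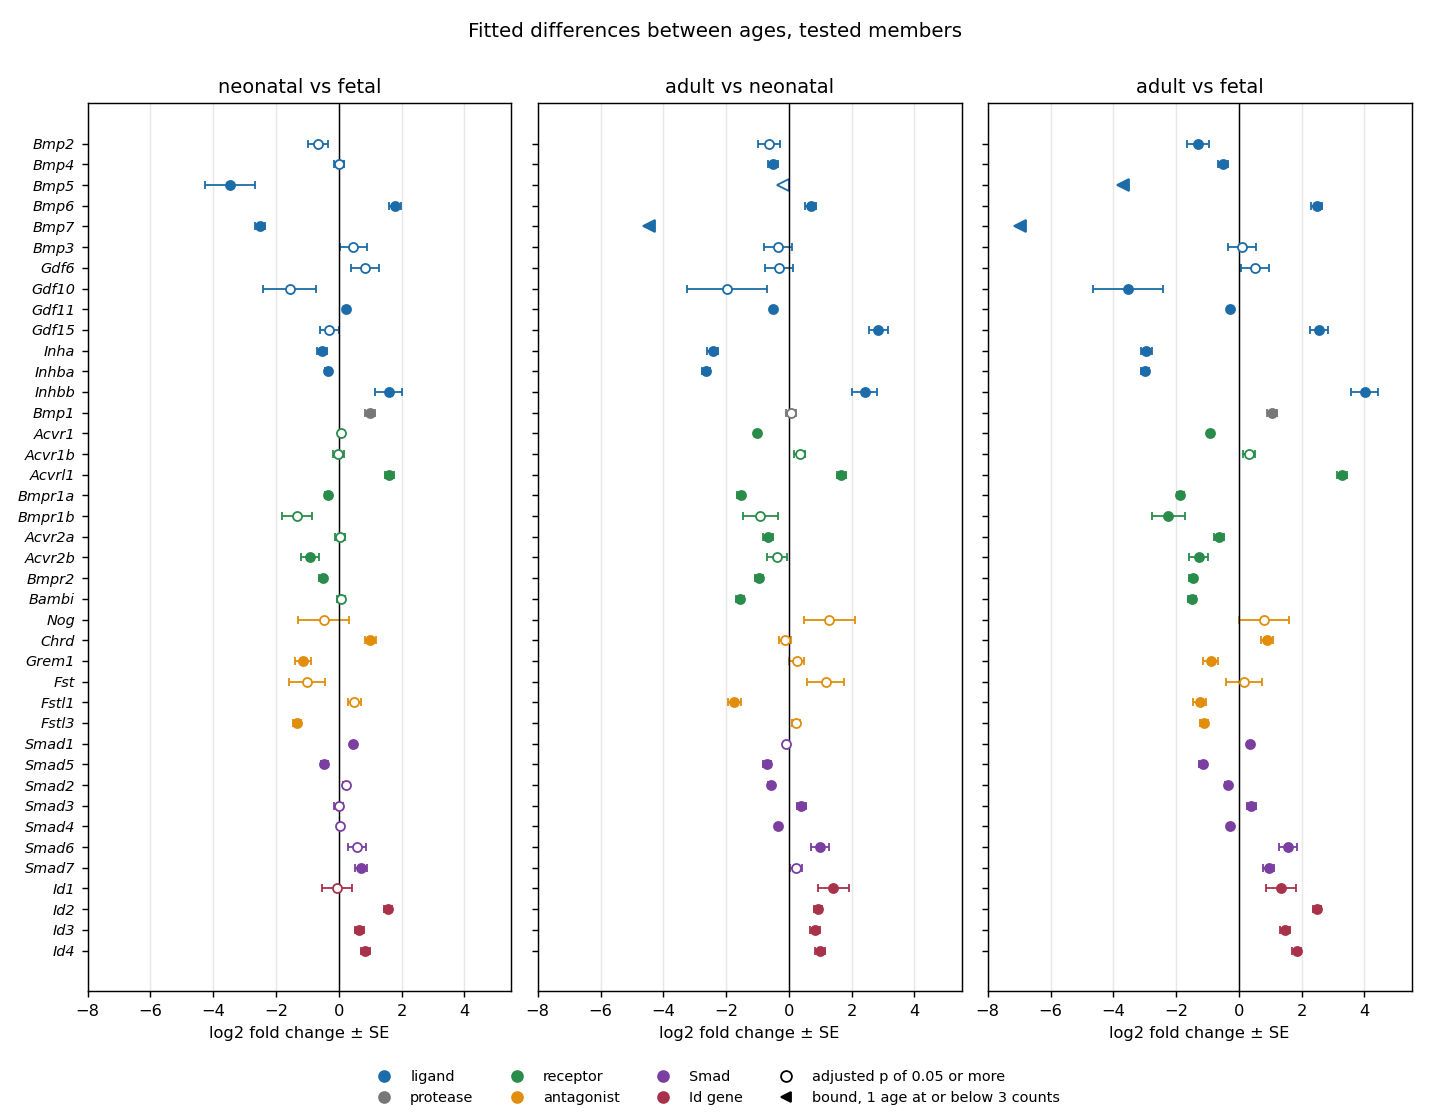
Log2 fold change of the tested genes reported here, by role, for neonatal over fetal (left), adult over neonatal (middle) and adult over fetal (right), with bars of 1 SE on each side; filled symbols passed adjusted p under 0.05 and triangles mark bounds where an age lay at or below 3 counts per library. Id genes lie right of 0 in the adult panels, and the Bmp7 bound is the lowest point of the adult over fetal panel.

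Of the activin and inhibin subunits, Inhba and Inha fell with age and Inhbb rose. Inhba, encoding the beta A subunit that forms activin A (chr17:51899146-51912423 on rn6), was at 97.8, 104 and 101 CPM in the fetal, 87.5, 80.6 and 70.1 in the neonatal and 15, 11.5 and 11.6 in the adult libraries. Every adult library lay far below every younger one. Adult Inhba was lower than fetal by a log2 fold change of -2.99 (SE 0.122, adjusted p = 6.18e-08), and lower than neonatal by -2.65 (SE 0.121, adjusted p = 2.13e-07). Between fetal and neonatal it fell by 0.35 (adjusted p = 0.0329), a call lost on leaving out fetal replicate 2, neonatal replicate 2 or neonatal replicate 3 (adjusted p 0.0784, 0.0883 and 0.134).

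Inhbb, encoding the beta B subunit of activin B (chr13:35436532-35442222), went the other way. It read 2.38, 1.81 and 5.95 CPM in fetal, 9.25, 10.4 and 10.6 in neonatal and 77.1, 46.7 and 37.4 in adult libraries, so that no age overlapped another and adult replicate 1 was highest. The fitted log2 fold change was 4.01 (SE 0.430) for adult over fetal (adjusted p = 3.84e-05) and 2.41 (SE 0.388) for adult over neonatal (adjusted p = 0.000609); for neonatal over fetal it was 1.59 (SE 0.431, adjusted p = 0.0207), a call lost when any 1 of fetal replicates 1 and 2 or neonatal replicates 2 and 3 was left out (adjusted p 0.0555 to 0.0612). Expressed per kilobase of exon, Inhbb made up 1.63% ± 1.06 (SD, n = 3) of the Inhba plus Inhbb level in fetal, 6.01% ± 1.00 in neonatal and 66.8% ± 5.16 in adult cultures. The adult beta-subunit pool was smaller in sum, 25.4 CPM per kilobase against 66.2 in fetal and 54.4 in neonatal cultures. Without adult replicate 1 the adult over fetal log2 fold change was 3.65 (adjusted p = 9.01e-05). Without fetal replicate 3 it was 4.69 (adjusted p = 3.56e-05), and neonatal over fetal was 2.28 (adjusted p = 0.00579). In adult replicate 1, which had the most Inhbb, the share was 71.9%, and the other adult libraries gave 66.9% and 61.6%.

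Inha encodes the alpha subunit that turns an activin dimer into an inhibin (chr9:82700482-82703383). It stood at 50.6, 50.4 and 47.7 CPM in fetal, 31.9, 34.4 and 36.96 in neonatal and 8.04, 6.86 and 4.27 in adult cultures. The fetal values lay together, the neonatal ones below them without overlap, and the adult ones lowest. Adult Inha differed from fetal by a log2 fold change of -2.95 (SE 0.180, adjusted p = 6.75e-07). The neonatal fall of -0.52 (SE 0.156, adjusted p = 0.0279) lost its call when any library other than fetal replicate 3 of those 2 ages was left out (adjusted p 0.0609 to 0.107). Inhbc and Inhbe, the subunits known mainly from liver, were not tested.

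**Figure D2:**
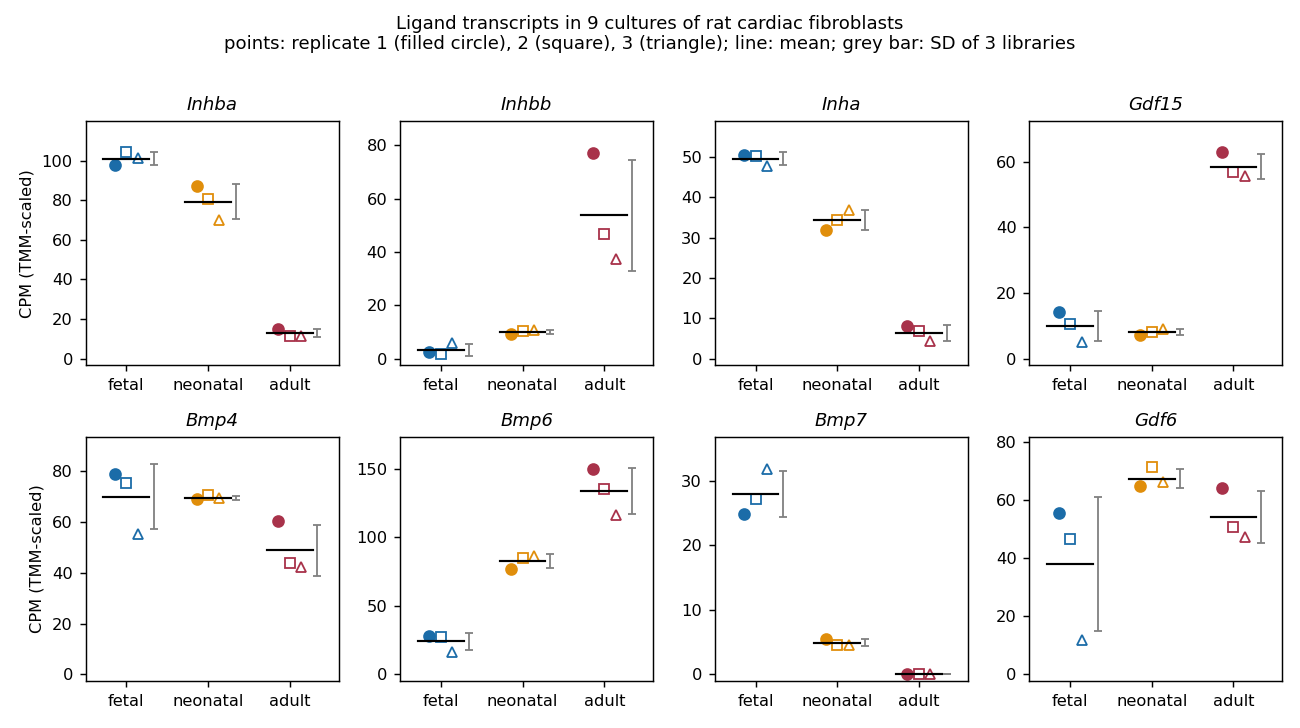
Ligand transcripts in CPM (TMM-scaled) by age; each point is a library, the line the mean and the grey bar the SD of 3 libraries. Inhba and Inha fall to the adult cultures, where Inhbb, Bmp6 and Gdf15 are highest and Bmp7 is at 0.

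Among BMP ligands, Bmp6 rose and Bmp7 fell below detection. Bmp6 (chr17:26955142-27112820), a ligand known for iron-linked and cartilage signalling, was at 27.9, 27.6 and 16.6 CPM in fetal, 77.2, 84.7 and 86.5 in neonatal and 149.9, 135 and 116 in adult libraries. Every neonatal value lay above every fetal value and every adult value above the neonatal ones. Adult over fetal, the log2 fold change was 2.47 (SE 0.188, adjusted p = 3.3e-06), and neonatal over fetal 1.78 (SE 0.184, adjusted p = 0.000191). Per kilobase, Bmp6 held 15.7% ± 0.695 (SD, n = 3) of the summed Bmp2, Bmp4, Bmp5, Bmp6, Bmp7 and Gdf6 level in fetal cultures. The share was 37.3% ± 1.19 in neonatal and 56.8% ± 2.17 in adult cultures.

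Bmp7 (chr3:170879972-170955820), a ligand of kidney and eye development, had 24.9, 27.2 and 31.8 CPM in fetal and 5.56, 4.55 and 4.60 in neonatal libraries, and no read in any adult library, where the depth allows up to 3 counts per library. Adult Bmp7 was at least 125-fold lower than fetal and at least 21.9-fold lower than neonatal (adjusted p = 1.93e-07 and 3.13e-06). The neonatal level was already down by a log2 fold change of -2.51 (SE 0.157, adjusted p = 5.9e-05). Bmp5, a less abundant relative, followed: it had 20, 38 and 111 counts in fetal replicates 1 to 3, 3, 6 and 5 in neonatal ones and none in the adult ones, and was at least 12.9-fold lower in adult than fetal cultures (adjusted p = 0.00139). Fetal replicate 3 held most of the fetal Bmp5 counts, and without it the bound was 6.16-fold (adjusted p = 8.98e-05). Its neonatal over fetal log2 fold change was -3.46 (SE 0.789, adjusted p = 0.0139) with all libraries and -2.42 (adjusted p = 0.003) without that one. The neonatal over fetal call was lost without neonatal replicate 1 or 2 (adjusted p 0.058 and 0.0561). Adult over neonatal, Bmp5 was called only without fetal replicate 3 or fetal replicate 1 among the libraries left out singly (adjusted p = 0.00789 and 0.0436).

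Bmp4, central to mesoderm formation, fell less. It was at 78.8, 75.4 and 55.3 CPM in fetal, 68.8, 70.4 and 69.3 in neonatal and 60.4, 43.6 and 42.3 in adult libraries, with an overlap of the fetal and adult ranges. The adult value was lower than the neonatal one by a log2 fold change of -0.51 (SE 0.161, adjusted p = 0.0195) and lower than the fetal one by -0.52 (SE 0.160, adjusted p = 0.0161). Leaving out fetal replicate 1 or 2 or adult replicate 2 or 3 ended the second call (adjusted p 0.0506 to 0.0645), and leaving out adult replicate 2 or 3 ended the first (0.0735 and 0.0725). Bmp4 supplied 46.0%, 31.0% and 20.4% of the summed BMP ligand level per kilobase at the successive ages. Bmp2, of low level, was 2.21 to 4.41 CPM in fetal and 0.974 to 1.61 CPM in adult libraries (adult over fetal adjusted p = 0.00838), and without fetal replicate 3 it was also called lower in adult than neonatal cultures (log2 fold change -0.64, adjusted p = 0.0495). Bmp3, an atypical BMP that works against others, and Gdf6, known for joint formation, were called in none of the comparisons with all libraries. Gdf6 had 55.5, 46.6 and 11.7 CPM in fetal replicates 1 to 3, and without fetal replicate 3 its neonatal over fetal log2 fold change of 0.41 was called (adjusted p = 0.0267), as was adult over neonatal at -0.32 (adjusted p = 0.0257). Bmp3 was called lower in adult than neonatal cultures without adult replicate 1, by -1.07 (adjusted p = 0.0198).

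The stress-induced cytokine Gdf15 (chr16:20555395-20557978) was highest in the adult cultures. Adult libraries gave 62.8, 56.8 and 55.7 CPM, against 14.3, 10.5 and 5.15 in fetal and 7.27, 8.13 and 8.93 in neonatal ones. No younger library came near the adult values. The adult log2 fold change was 2.55 (SE 0.286) over fetal and 2.85 (SE 0.292) over neonatal (adjusted p = 4.29e-05 and 3.62e-05). Without fetal replicate 3 its neonatal over fetal log2 fold change of -0.60 was also called (adjusted p = 0.00568). Gdf11, a close relative of myostatin, was slightly lower in adult cultures, at 33.1 to 35.3 CPM against 39.2 to 43.4 in fetal ones (adjusted p = 0.00736). Gdf10, of lower level, was 2.32, 2.12 and 0.106 CPM in fetal and 0.306, 0.0722 and 0 CPM in adult libraries. Its adult over fetal log2 fold change was -3.54 (SE 1.12, adjusted p = 0.0178), a call lost on leaving out adult replicate 2 or 3 (adjusted p 0.0634 and 0.0582). Without adult replicate 1 the value was -5.13 (adjusted p = 0.0194). Gdf10 without fetal replicate 3 was also called lower in neonatal than fetal cultures, by -2.10, and in adult than neonatal ones, by -1.98 (adjusted p = 0.00216 and 0.0245).

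Bmp1 is not a ligand but the protease that cuts the end pieces from procollagens (chr15:52166401-52210746). Its level was 164, 165 and 102 CPM in fetal, 279.8, 285 and 290.1 in neonatal and 283, 315 and 292 in adult libraries. The rise came between fetal and neonatal cultures, a log2 fold change of 0.99 (SE 0.159, adjusted p = 0.00179), and neonatal and adult levels overlapped (adult over neonatal adjusted p = 0.767). Fetal replicate 3 was lowest, at 102 CPM.

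**Figure D3:**
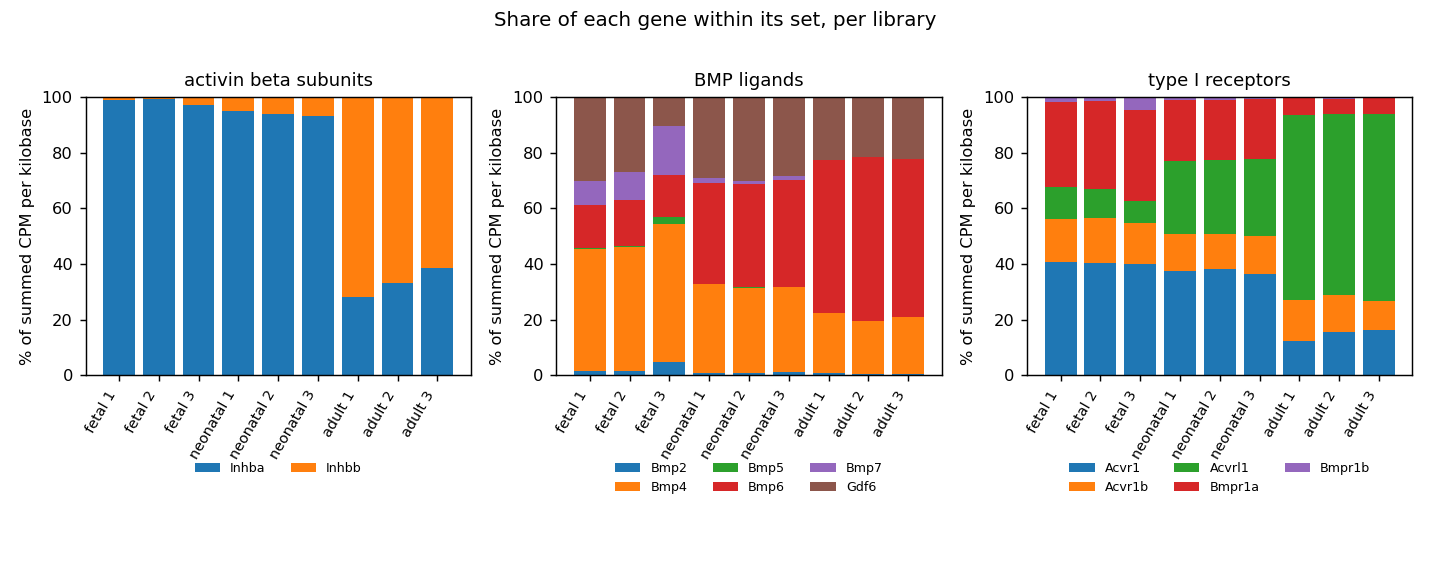
Share of each gene in the summed CPM per kilobase of its set, in percent, by library. In adult cultures Inhbb, Bmp6 and Acvrl1 hold the largest shares of activin beta subunits, BMP ligands and type I receptors, at 66.8%, 56.8% and 66.2% on average.

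Receptor transcripts mostly fell, apart from Acvrl1. Acvrl1 (chr7:142776252-142787336), a type I receptor of BMP9 and BMP10 that is known from endothelium, was 34.6, 32.1 and 23.5 CPM in fetal, 89.7, 93.1 and 93.1 in neonatal and 339.9, 282 and 257 in adult libraries. Each age lay apart from the others. The log2 fold change adult over fetal was 3.28 (SE 0.155, adjusted p = 1.5e-07), and adult over neonatal 1.67 (SE 0.145, adjusted p = 1.04e-05). Per kilobase it made up 9.98% ± 1.85 of type I receptor transcripts in fetal, 26.7% ± 0.768 in neonatal and 66.2% ± 1.24 in adult cultures. Of the 8 endothelial markers, 4 lay above all younger libraries in each adult library and 1 below; their part in the rise of Acvrl1 was not tested. Gdf2 and Bmp10, which encode those ligands, were too low to test at every age.

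Bmpr1a, the main BMP type I receptor in many tissues (chr16:10758526-10802512), showed 81.8, 88.1 and 85.9 CPM in fetal, 67.4, 69.4 and 65.2 in neonatal and 27.9, 22.2 and 19.9 in adult libraries. No age overlapped another, and adult over fetal the log2 fold change was -1.87 (SE 0.111, adjusted p = 5.84e-07). Its neonatal fall of -0.34 (SE 0.105) was not called without fetal replicate 2 or any neonatal library (adjusted p 0.0752 to 0.112). Its share of type I receptors went from 31.5% to 5.85%. Acvr1, another type I receptor, was 61.9, 63.1 and 60.1 CPM in fetal, 65.1, 68.7 and 62.5 in neonatal and 31.5, 34.5 and 31.3 in adult libraries. Fetal and neonatal ranges overlapped (adjusted p = 0.347) and the adult libraries lay below both. The adult over neonatal log2 fold change was -1.01 (SE 0.0689, adjusted p = 2.42e-06). Bmpr1b was low at every age and fell from fetal libraries, at 1.81 to 6.16 CPM, to adult ones, at 0.524 to 1.08 CPM. The log2 fold change was -2.25 (SE 0.527, adjusted p = 0.0038). Without fetal replicate 3 that value was -1.53 (adjusted p = 0.00224), and Bmpr1b was then also called lower in adult than neonatal cultures, by -0.91 (adjusted p = 0.0348). Acvr1b, the activin type I receptor, passed no test with all libraries, at 28.1 to 32.8 CPM in fetal, 29.1 to 30.1 in neonatal and 26.6 to 48.6 in adult libraries. Without adult replicate 3 it was called higher in adult than neonatal and than fetal cultures, at log2 fold changes of 0.54 and 0.52 (adjusted p = 0.00535 and 0.00512).

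On the type II side, Bmpr2, the receptor most often mutated in pulmonary arterial hypertension, was 103, 115 and 133 CPM in fetal, 84.98, 87.8 and 71.6 in neonatal and 44.7, 38.9 and 42.8 in adult libraries. The adult over fetal log2 fold change was -1.47 (SE 0.115, adjusted p = 3.26e-06). Acvr2a and Acvr2b, the activin type II receptors, fell too: adult over fetal adjusted p = 0.0061 for Acvr2a, at 15.4 to 17.4 against 8.46 to 13.5 CPM, and 0.00399 for Acvr2b, at 1.28 to 1.65 against 0.524 to 0.765 CPM. Together the type II receptors summed to 38.2, 28.7 and 15.8 CPM per kilobase from fetal to adult, while the type I sum was 85.9, 98.3 and 126. Acvrl1 alone gave 8.58, 26.2 and 83.6 CPM per kilobase of that type I sum. Bambi, a kinase-free receptor look-alike that damps the signal, was 30.4, 32.4 and 26.1 CPM in fetal, 30.5, 29.6 and 32.9 in neonatal and 8.72, 10.8 and 12.1 in adult libraries, lower in adult than neonatal by a log2 fold change of -1.55 (SE 0.133, adjusted p = 9.73e-06).

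**Figure D4:**
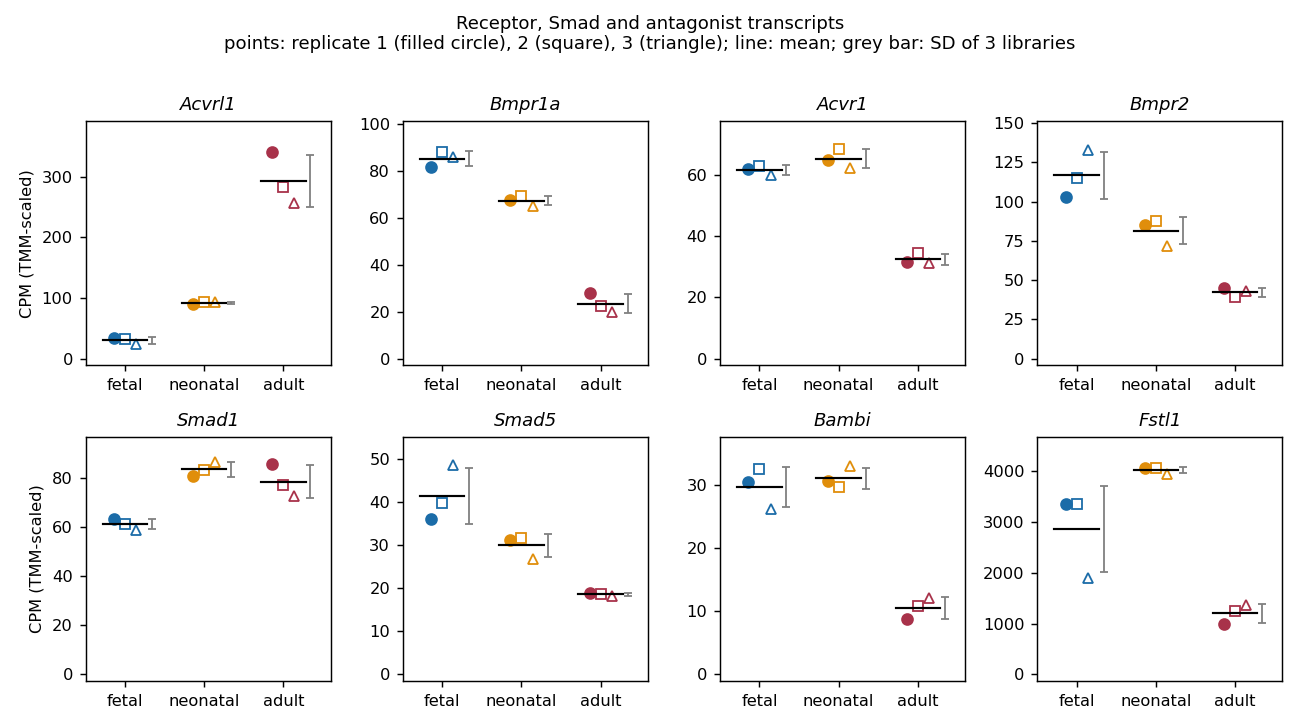
Receptor, Smad and antagonist transcripts in CPM by age, as points per library with the mean line and SD bar of 3 libraries. Acvrl1 has its highest mean in adult cultures, and Bmpr1a, Acvr1, Bmpr2, Smad5, Bambi and Fstl1 have their lowest means there.

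Antagonists differed in direction. Fstl1, a secreted follistatin-like glycoprotein and the most abundant gene of the whole group per kilobase in fetal and neonatal cultures, was 3347, 3354 and 1892 CPM in fetal, 4058, 4069 and 3948 in neonatal and 998, 1257 and 1361 in adult libraries. Fetal replicate 3 lay below its age, and all adult libraries were below every younger one. Adult over neonatal the log2 fold change was -1.74 (SE 0.213, adjusted p = 9.08e-05). Grem1, which binds BMPs outside the cell, was 363, 386 and 383 CPM in fetal, 168, 173 and 170.1 in neonatal and 303, 165 and 138 in adult libraries. Neonatal Grem1 was below fetal by a log2 fold change of -1.15 (SE 0.247, adjusted p = 0.00808), and adult by -0.90 (SE 0.246, adjusted p = 0.00943). Adult replicate 1 lay far above the other adult libraries, and without it the adult over fetal log2 fold change was -1.32 (adjusted p = 4.62e-06).

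Fstl3, which binds activin, was 33.3, 26.9 and 29.2 CPM in fetal, 11.2, 12.97 and 11.2 in neonatal and 11.4, 15.02 and 14.98 in adult libraries, a fall to neonatal of -1.33 (SE 0.135) on the log2 scale (adjusted p = 0.000156). Without adult replicate 1, Fstl3 was also called higher in adult than neonatal cultures, by 0.34 (adjusted p = 0.0428). Chrd, chordin, was the antagonist that rose: 6.59, 6.83 and 4.36 CPM in fetal, 10.8, 12.6 and 12.4 in neonatal and 12.8, 9.90 and 10.2 in adult libraries, with a neonatal over fetal log2 fold change of 1.01 (SE 0.189, adjusted p = 0.00368). Fst, follistatin, the classic activin-binding protein, was 15.7, 15.1 and 77.3 CPM in fetal, 18.4, 18.3 and 16.8 in neonatal and 48.98, 40.8 and 30.8 in adult libraries and was not called with all libraries. Without fetal replicate 3, its adult over fetal log2 fold change of 1.38 was called (adjusted p = 3.31e-05), as was adult over neonatal at 1.16 (adjusted p = 4.63e-05). Nog, noggin, was called in no comparison with all libraries, where its adult over fetal log2 fold change was 0.80 (SE 0.788, adjusted p = 0.382). Without fetal replicate 3 that value was 2.10 and was called (adjusted p = 0.0258). Without adult replicate 1 it was -0.26 (adjusted p = 0.786), and with both left out 1.05 (adjusted p = 0.031). Nog was low, at 0.486, 0.661 and 3.24 CPM in fetal and 5.20, 1.37 and 1.05 CPM in adult replicates 1 to 3.

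Among the Smads, Smad1 and Smad5, the BMP-activated pair, parted. Smad1 was 63.03, 61.3 and 58.9 CPM in fetal, 80.5, 83.2 and 86.3 in neonatal and 85.6, 76.9 and 72.4 in adult libraries, up by a log2 fold change of 0.45 (SE 0.0733) to neonatal (adjusted p = 0.00192). Smad5 was 36.03, 39.9 and 48.6 CPM in fetal, 31.3, 31.8 and 26.9 in neonatal and 18.9, 18.8 and 18.1 in adult libraries, and adult over fetal its log2 fold change was -1.16 (SE 0.121, adjusted p = 2.19e-05). Smad1 thus made up 45.5%, 61.1% and 70.4% of the pool of Smad1, Smad5 and Smad9 per kilobase at the successive ages. Smad2, which relays activin, was 69.7, 76.5 and 84.9 CPM in fetal, 92.8, 89.7 and 87.6 in neonatal and 53.6, 66.1 and 60.6 in adult libraries. Its neonatal over fetal log2 fold change of 0.30 was called without fetal replicate 3 (adjusted p = 0.0149). It fell from neonatal to adult by 0.58 on the log2 scale (adjusted p = 0.000526), and the common partner Smad4, at 95.5 to 103 CPM in the younger and 74.2 to 85.3 CPM in the adult libraries, fell by 0.34 (adjusted p = 0.00154). Smad3 was 147, 114 and 89.3 CPM in adult replicates 1 to 3 and 86.3 to 89.8 CPM in the younger libraries, and its adult over fetal call (adjusted p = 0.0331) was lost without adult replicate 1 (0.096), without adult replicate 2 (0.0635) and without any 1 fetal library (0.0676 to 0.0919). Its adult over neonatal call (adjusted p = 0.0357) was lost on leaving out any 1 library other than adult replicate 3 (0.0507 to 0.105).

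The Id genes were higher in adult cultures. Id3 (chr5:154489603-154491172), the most abundant Id gene per kilobase, was 207, 172 and 163 CPM in fetal, 274, 288 and 291 in neonatal and 643, 435 and 433 in adult libraries, and adult over fetal its log2 fold change was 1.48 (SE 0.159, adjusted p = 2.66e-05). Id2 (chr6:44360077-44361908) was 19.01, 19.3 and 15.9 CPM in fetal, 52.8, 55.1 and 53.2 in neonatal and 122, 94.2 and 90.2 in adult libraries, with a log2 fold change of 2.5 (SE 0.127) for adult over fetal (adjusted p = 2.33e-07). Id4 (chr17:16692557-16695126), the least abundant, was at 5.35, 6.57 and 5.15 CPM in fetal, 9.03, 11.1 and 10.7 in neonatal and 23.1, 18.2 and 19.8 in adult libraries, with a log2 fold change of 1.84 (SE 0.151) for adult over fetal (adjusted p = 4.61e-06). In Id2, Id3 and Id4 no age overlapped the next, and each comparison was called.

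Id1 (chr3:148215588-148216715) was different. It was 48.4, 44.2 and 47.02 CPM in fetal, 42.1, 45.3 and 45.8 in neonatal and 237, 62.6 and 56.8 in adult libraries. All adult libraries lay above the younger ones, and adult replicate 1 far above the rest. The adult over fetal log2 fold change was 1.35 (SE 0.483, adjusted p = 0.0322), and without adult replicate 1 it was 0.36 (adjusted p = 0.00375). For adult over neonatal the values were 1.42 (SE 0.485, adjusted p = 0.0297) and 0.43 (adjusted p = 0.00196). With the replicate number as a block the calls were lost (adjusted p = 0.0607 and 0.0595), as they were without fetal replicate 3 (0.132 and 0.0868). Leaving out fetal replicate 1 or 2 ended the adult over fetal call (0.0717 and 0.081), and leaving out any 1 neonatal library ended the adult over neonatal call (0.0733 to 0.0823).

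**Figure D5:**
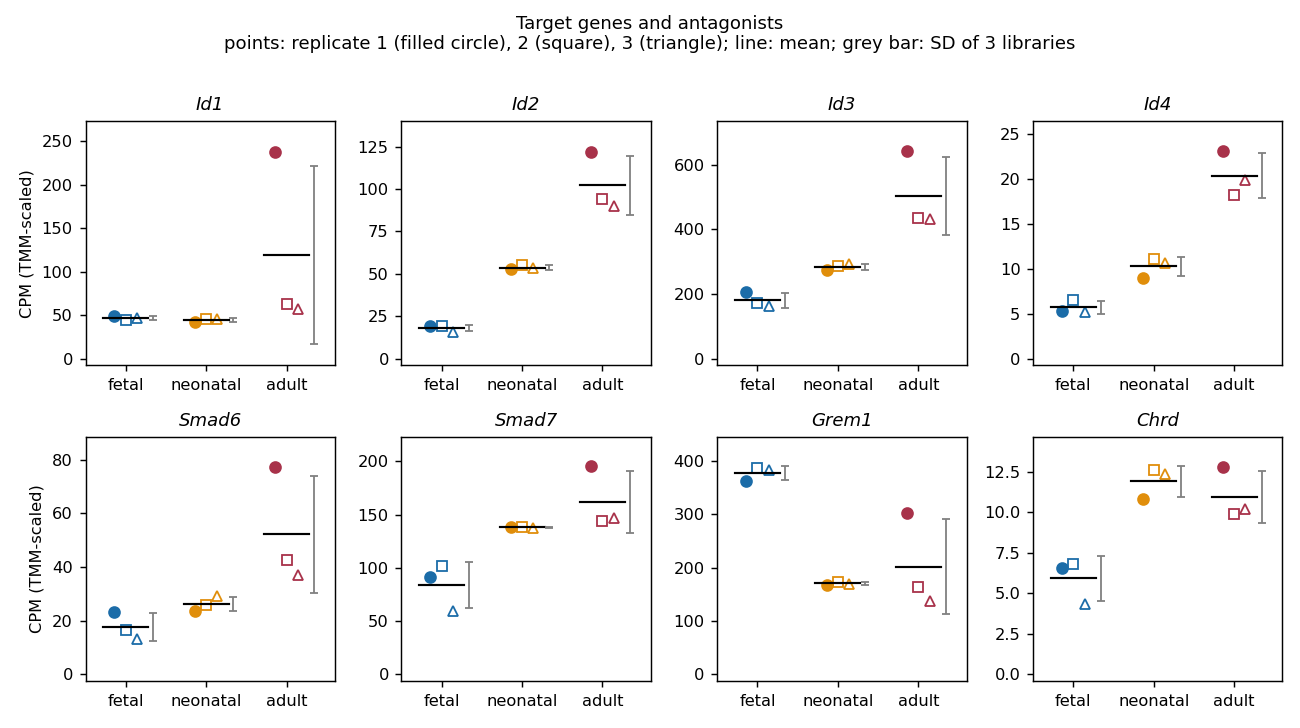
Target genes (Id1 to Id4, Smad6, Smad7) and the antagonists Grem1 and Chrd in CPM by age, as points per library with mean line and SD bar of 3 libraries. Id2, Id3 and Id4 step up at each age, while the adult mean of Id1 is raised by replicate 1 at 237 CPM.

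Smad6 and Smad7 encode the inhibitory Smads that BMP signals themselves induce. Smad6 was 23.1, 16.6 and 13.1 CPM in fetal, 23.7, 25.8 and 29.1 in neonatal and 77.1, 42.5 and 36.8 in adult libraries, and all adult libraries exceeded all younger ones. Its log2 fold change was 1.57 (SE 0.296) for adult over fetal (adjusted p = 0.00125), and its adult over neonatal call (adjusted p = 0.0151) was lost without neonatal replicate 1 (0.0523). Without adult replicate 1, the highest, the adult over fetal value of Smad6 was 1.18 (adjusted p = 0.00128), and its neonatal over fetal value of 0.58 was called (adjusted p = 0.045). Smad7 was 91.01, 101 and 59.6 CPM in fetal, 138, 138 and 137 in neonatal and 196, 144 and 147 in adult libraries, up from fetal to neonatal by 0.72 (SE 0.187, adjusted p = 0.0176, and 0.0518 without neonatal replicate 2). Adult over neonatal, Smad7 was not called (adjusted p = 0.304). Bambi, also a target in many cells, moved the other way, as given above.

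Because Id1, Id2 and Id3 are read out as BMP targets and Inhba is the activin subunit that fell, the 250 bases before their annotated start are shown from RefSeq (assembly GRCr8), 5′ to 3′, where capitals mark a searched motif. The motifs searched on both strands were GGCGCC and GGAGCC, letters known from BMP-responsive elements, CAGAC, the letters of the Smad box, and TATAAA. Each motif was counted on its own, so overlapping matches of different motifs count under both.

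Id1, chr3:161671314-161671563, plus strand: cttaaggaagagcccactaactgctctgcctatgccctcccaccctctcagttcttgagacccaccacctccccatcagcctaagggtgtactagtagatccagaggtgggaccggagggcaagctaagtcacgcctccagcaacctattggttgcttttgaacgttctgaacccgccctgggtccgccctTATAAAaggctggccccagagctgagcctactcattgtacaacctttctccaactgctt
Id2, chr6:47470996-47471245, minus strand: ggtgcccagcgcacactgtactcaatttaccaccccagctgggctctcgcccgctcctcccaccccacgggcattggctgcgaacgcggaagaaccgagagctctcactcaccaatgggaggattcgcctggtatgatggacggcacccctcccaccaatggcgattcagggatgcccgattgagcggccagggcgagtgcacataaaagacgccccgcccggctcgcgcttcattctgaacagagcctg
Id3, chr5:153656041-153656290, plus strand: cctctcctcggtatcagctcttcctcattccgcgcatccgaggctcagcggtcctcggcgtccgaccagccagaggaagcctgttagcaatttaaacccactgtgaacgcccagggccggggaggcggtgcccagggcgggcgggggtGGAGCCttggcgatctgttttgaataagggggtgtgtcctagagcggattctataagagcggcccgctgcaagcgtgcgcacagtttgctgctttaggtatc
Inhba, chr17:53804509-53804758, minus strand: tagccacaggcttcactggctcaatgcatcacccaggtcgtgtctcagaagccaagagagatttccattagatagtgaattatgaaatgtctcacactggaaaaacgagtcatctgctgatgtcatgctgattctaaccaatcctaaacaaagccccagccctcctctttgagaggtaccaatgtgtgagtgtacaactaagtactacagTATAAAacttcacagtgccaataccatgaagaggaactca

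The Id1 window held TATAAA at 59 bases before the start, the Inhba window held it at 40 bases before the start, and the Id3 window held GGAGCC at 102 bases before it; the Id2 window held none of the motifs. The motif GGCGCC occurred in 8.69% of the 33469 promoter entries, GGAGCC or its reverse complement in 23%, CAGAC or its reverse complement in 42.9% and TATAAA or its reverse complement in 12.9%. Of the 54 members 43 had an entry. The counts of members holding them were 10, 15, 13 and 8. GC content was 54.8%, 62.8%, 61.2% and 43.6% in the order printed, against a median of 51.2% over all entries. A match describes letters and no binding, and bases outside these windows were not searched.

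Beyond the members, 69 further pathway genes were listed, 59 were in the table and 43 were tested. From fetal to adult 15 rose and 21 fell (83.7% of the tested, background 70.5%), from neonatal to adult 14 rose and 19 fell (background 63.5%), and from fetal to neonatal 14 rose and 6 fell (background 36.3%). That last split turned with library size alone, which gave 7 higher and 11 lower. Without neonatal replicates 1, 2 and 3 in turn it was 8 and 3, 8 and 3, and 7 and 4, and without fetal replicate 3 and adult replicate 1 together 16 and 14. The coreceptor Eng, known from endothelium, averaged 195 CPM in fetal, 514 CPM in neonatal and 1007 CPM in adult cultures (adult over fetal log2 fold change 2.37, adjusted p = 3.76e-06), in the same direction as Acvrl1. Beside it, the endothelial markers summed to 92.3 to 108 CPM in adult cultures, of which Tie1 held 68.6 to 72.5 CPM. Their part here, too, was not tested. Tgfbr3, the coreceptor betaglycan, also rose (log2 fold change 2.23, adjusted p = 0.000732).

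Extracellular modulators split. Nbl1, an antagonist of the DAN family, rose from 33.99 to 170.5 CPM (log2 fold change 2.33, adjusted p = 2.05e-06), and Tmeff2, a membrane protein with follistatin domains, rose from 1.38 to 11.8 CPM (3.09, adjusted p = 5.03e-06). Bmper, a BMP-binding modulator, fell from 86.1 to 13.9 CPM (log2 fold change -2.63, adjusted p = 3.36e-05) and Crim1 from 353 to 112 CPM (-1.66, adjusted p = 3.89e-06). Tmeff1 fell from 31.1 to 0.615 CPM (-5.63, adjusted p = 7.38e-07), and Twsg1 from 17.4 to 7.47 CPM (-1.22, adjusted p = 0.000924). The proteases parted as well: Tll1, a relative of Bmp1, fell from 175 to 7.95 CPM (-4.46, adjusted p = 2.88e-06), while the proprotein convertase Pcsk6 rose from 59.5 to 263 CPM (2.14, adjusted p = 1.1e-05). Further inside the cell, Ppm1h, a phosphatase, rose by 2.92, Atoh8 and Msx1, target genes, by 2.34 and 1.37 on the log2 scale (adjusted p = 9.9e-07, 6.49e-07 and 0.00876). Msx2 and Hey1, further target genes, were named after their values were seen because they lay under the level set for naming. Msx2 fell by 2.81 (adjusted p = 0.00106), and Hey1 was at least 2.25-fold lower in adult than fetal cultures (adjusted p = 0.011). Snai2 and Tgfb1i1 fell by 1.33 and 1.23 (adjusted p = 6.28e-05 and 6.19e-07).

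The 13 members that were not tested were Bmp8a, Bmp10, Gdf2, Bmp15, Gdf1, Gdf3, Gdf7, Gdf9, Inhbc, Inhbe, Acvr1c, Chrdl1 and Smad9. They are 10 ligands, among them Bmp10, a ligand known from the heart, with a receptor, an antagonist and a Smad, and the highest level of any in a single library was 1.43 CPM. The exons of Gdf1 lie entirely in those of Cers1, a gene transcribed with it, so its reads could not be assigned to either gene. No exon of any other member was shared with another gene.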

How the data were processed

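RNA of 9 rat cardiac fibroblast cultures was sequenced, 3 at each of 3 ages. The raw gene counts were deposited by the authors and, per the file headers, made with featureCounts 1.6.3 on an rn6 annotation with only the annotation and output options given, so at that program's defaults counting was unstranded and reads mapped to several places were left out. The submitters' processing notes name FastQC, Trimmomatic 0.39, STAR 2.5.2b, featureCounts, Subread 1.6.3 and DESeq2 without their roles. Exon lengths and coordinates are those of the count table. A second deposited table of normalized values was not used here.

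From the counts, ages were compared with edgeR 4.0.16 under R 4.3.3: filterByExpr by age (11337 genes kept), TMM scaling and robust quasi-likelihood fits to all 9 libraries with age as the only term, with 6 residual degrees of freedom. P-values were two-sided and Benjamini-Hochberg adjusted over all genes tested, and adjusted p under 0.05 was a call. Standard errors were the log2 fold change divided by the root of F. CPM used TMM-scaled library sizes. Shares and sums within sets of members were taken per kilobase of exon. Marker sums, and the level of Eng set beside them, were in CPM not scaled for exon length. An age with at most 3 counts in each library was set at 3 counts per library for a lower bound on the fold, which covers counting error only, since without molecular identifiers reads may be copies of 1 molecule. The edgeR steps were tested on simulated data. No pair of libraries of an age agreed within counting error.

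Named with values in every library were members averaging 10 CPM or more at some age and a called log2 fold change of at least 1 in size, the target genes Id1 to Id4, Smad6, Smad7 and Bambi, and the highest member of each role per kilobase. Others were named where a count was 5 or fewer or a library decided their call, after their values were seen. Other pathway genes were named if called in adult against fetal with such a change and level. The members and lists were chosen with earlier results of these data known. All 54 symbols are current in RefSeq. The values of 1 tested member are not reported here, though the counts include it. Alternatives were DESeq2 1.42.0, DESeq2 size factors, library size alone, no filter on low counts, a replicate block, each library left out and, chosen after seeing the data, fetal replicate 3 and adult replicate 1 left out together.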

Additional observations from a re-analysis of the deposited data

How the results depend on the processing

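Over 41 tested members, 3 comparisons and 15 alternatives, 1732 of 1845 values kept their side of the threshold. Of the rest, 68 lost a call, 43 gained one in the same direction and 2 changed sign and gained a call. The 1732 include changes of sign between values that were both not called, which were not counted apart. Both called reversals came without fetal replicate 3 and adult replicate 1 together: Bmp3 adult over fetal became -0.88 and Grem1 adult over neonatal -0.17. That setting also gave 10 members lower in all 3 pairs of ages. Without adult replicate 1 alone, Bmp3 adult over fetal was -0.60 and Grem1 adult over neonatal -0.17, and neither was called (adjusted p 0.129 and 0.107). With 1 library left out at a time, the count of members lower from fetal to neonatal ran from 6 to 14, with 7, 6 and 6 without neonatal replicates 1, 2 and 3, where 2476 to 2607 of all genes were called in place of 4114. The count lower in all 3 pairs ran from 2 to 8, with 3 without fetal replicate 2, 3 without neonatal replicate 2 and 2 without neonatal replicate 3. The members' median log2 fold change ran from -0.010 to 0.048 for neonatal over fetal (highest without fetal replicate 2), from -0.38 to -0.076 for adult over neonatal (highest without adult replicate 3) and from -0.34 to -0.27 for adult over fetal. With library size alone the medians were -0.17 for neonatal over fetal and -0.41 for adult over fetal, where the median of all genes was -0.18 and -0.12. Without the filter the adult over fetal median was -0.44. The cause of these changes was not tested.

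The labels do not say whether replicate numbers pair the libraries. Deviations of same-numbered libraries from the mean of their age, over all tested genes, correlated between -0.0649 and 0.0521. Libraries of different number were not set beside them, so these values do not decide whether the libraries were paired. With the replicate block, 119 of 123 values kept their call, Bmp5 adult over neonatal gained one (adjusted p = 0.0198), and Acvr2b neonatal over fetal (0.0629) and the Id1 calls of adult over neonatal (0.0595) and adult over fetal (0.0607) were lost.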
